A study of Gallus gallus with 6 samples.

Results

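CALCA, STC2 and OSTN are 3 genes for secreted factors of calcium and bone physiology. They were chosen by name from the table of differentially expressed genes (DEGs) that the authors deposited, and they are 3 of its 616 genes and of the 19152 genes counted. RNA was sequenced from the uterus, or shell gland, of 3 Hy-line layers aged 35 weeks and 3 Hy-line non-layers aged 35 to 60 weeks, with 1 library per hen. Per the study's methods, the layers were sampled while an egg was being calcified in the uterus, and the non-layers had no growing follicles in the ovary, so laying, the egg in the uterus and hen age cannot be told apart. The comparison asks which genes differ in the uterus of a hen that is forming a shell. Because the authors made their table from these same 6 libraries, that the 3 genes differ between groups follows from how they were chosen. Their differences, direction included, are given as descriptions.

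CALCA encodes calcitonin, a hormone that birds make in the ultimobranchial glands, and by alternative splicing calcitonin gene-related peptide (CGRP), a peptide of sensory nerves. STC2 encodes stanniocalcin 2, a glycoprotein of a family first known as a calcium-lowering hormone of fish, and human stanniocalcin 2 blocks the protease PAPP-A, which frees insulin-like growth factors from a binding protein. OSTN encodes osteocrin, which in mice is secreted by bone-forming cells and muscle and binds the clearance receptor of the natriuretic peptides. Occupying that receptor leaves more C-type natriuretic peptide to act on bone growth in mice. The uterus of the laying hen secretes the calcium that becomes the eggshell.

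CALCA (ENSGALG00000006054) lies on the plus strand of chromosome 5, bases 10532056 to 10544141 of Galgal 5.0, with 3 annotated transcripts and 1654 bases of exon. STC2 (ENSGALG00000002893) lies on the minus strand of chromosome 13, bases 9230034 to 9239581, with 1 transcript and 1163 bases of exon. OSTN (ENSGALG00000007226) lies on the minus strand of chromosome 9, bases 13761297 to 13772476, with 1 transcript and 543 bases of exon, a multiple of 3. All 3 are annotated as protein coding, and the values below rest on the values per gene that the authors deposited. The name CALCB, which the study uses, is a RefSeq synonym of chicken CALCA.

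The qPCR primers of the study are shown because they tie the name CALCB to a gene, the pair listed under CALCB having been designed on a transcript that RefSeq assigns to CALCA. They are written 5′ to 3′ in lower case with no base marked.
CALCA forward: gcaccgccgagaggaaa
CALCA reverse: tcgtaatcactgagcgtcac
STC2 forward: acatccggaggtctagctg
STC2 reverse: tggttcgagcttgttctacc
OSTN forward: gcaaacagaggaaagtggttg
OSTN reverse: agaagattttgcaggaggtcaa
The primers are 17 to 22 bases long, and their positions in the genome were not determined here.

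The libraries held 14756652 to 20333092 gene counts. Levels between libraries are given as CPM, counts scaled to a common library total, on the TMM scale, a scaling that sets most genes equal between libraries, with factors of 0.859 to 0.934 in layers and 1.087 to 1.178 in non-layers. Genes were counted as DEGs when edgeR's quasi-likelihood test gave an adjusted p below 0.05 and the fold change was 2 or more. By this rule 249 of 13317 genes tested were DEGs, with 0.901% of the genes tested called higher in layers. The shell gland markers with a name (MEPE, SPP1, OTOP2 and OCX36, which are 4 of 6 listed) summed to 53780 to 64410 CPM in the layers and to 62.8 to 293 CPM in the non-layers. They are named only because they are in the authors' table of DEGs, so this difference follows from that choice. The sums rest mainly on single genes. MEPE averaged 48660 CPM in the layers, and in the non-layers OCX36 averaged 154 CPM and MEPE 26.7 CPM. OCX36 was not called (edgeR adjusted p = 0.053). In bulk tissue, fewer cells of a type and less RNA per cell cannot be told apart.

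OSTN had the largest difference among CALCA, STC2 and OSTN, and it alone of them passed edgeR's test. Layers 1, 2 and 3 had 248, 142 and 217 counts, or 14.7, 9.87 and 12.2 CPM. Non-layers 1, 2 and 3 had 34, 68 and 36 counts, or 2.07, 3.35 and 1.88 CPM. Every layer lay above every non-layer, and the lowest layer was 2.95-fold above the highest non-layer. The 95% Poisson intervals of these 2 libraries, which cover counting error only, were 8.32 to 11.6 CPM and 2.60 to 4.25 CPM and did not overlap. The layers averaged 12.3 ± 2.42 CPM against 2.43 ± 0.801 CPM for the non-layers (SD, n = 3 each). The log2 fold change was 2.33 ± 0.33 (SE), or 5.02-fold, with an edgeR adjusted p of 0.033. OSTN was not called when layer 1 (adjusted p = 0.075), layer 2 (0.099), non-layer 1 (0.17) or non-layer 2 (0.089) was left out, while its log2 fold change stayed between 2.17 and 2.63 with any library left out.

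CALCA had the next largest difference and missed the threshold in edgeR. Layers 1, 2 and 3 had 150, 153 and 80 counts, or 8.89, 10.6 and 4.50 CPM. Non-layers 1, 2 and 3 had 32, 30 and 62 counts, or 1.95, 1.48 and 3.23 CPM. The groups did not overlap, but layer 3 was low among the layers and non-layer 3 was high among the non-layers. These 2 libraries differed 1.39-fold, and their counting intervals of 3.57 to 5.60 CPM and 2.48 to 4.14 CPM overlapped. The layers averaged 8.01 ± 3.16 CPM and the non-layers 2.22 ± 0.908 CPM (SD, n = 3 each). The log2 fold change was 1.85 ± 0.45 (SE), or 3.59-fold, with an edgeR adjusted p of 0.084, and the adjusted p was 0.053 to 0.30 with each library left out in turn.

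STC2 had the lowest counts of the 3 genes and also missed the threshold in edgeR. Layers 1, 2 and 3 had 36, 73 and 66 counts, or 2.13, 5.08 and 3.71 CPM. Non-layers 1, 2 and 3 had 22, 25 and 12 counts, or 1.34, 1.23 and 0.626 CPM. The groups did not overlap, with layer 1 the lowest layer and 1.59-fold above the highest non-layer. The counting intervals of layer 1, 1.495 to 2.95 CPM, and of non-layer 1, 0.841 to 2.03 CPM, overlapped. The group means were 3.64 ± 1.47 CPM for layers and 1.07 ± 0.386 CPM for non-layers (SD, n = 3 each). The log2 fold change was 1.76 ± 0.47 (SE), or 3.40-fold, with an edgeR adjusted p of 0.10, and the adjusted p was 0.11 to 0.29 with each library left out in turn.

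**Figure D1:**
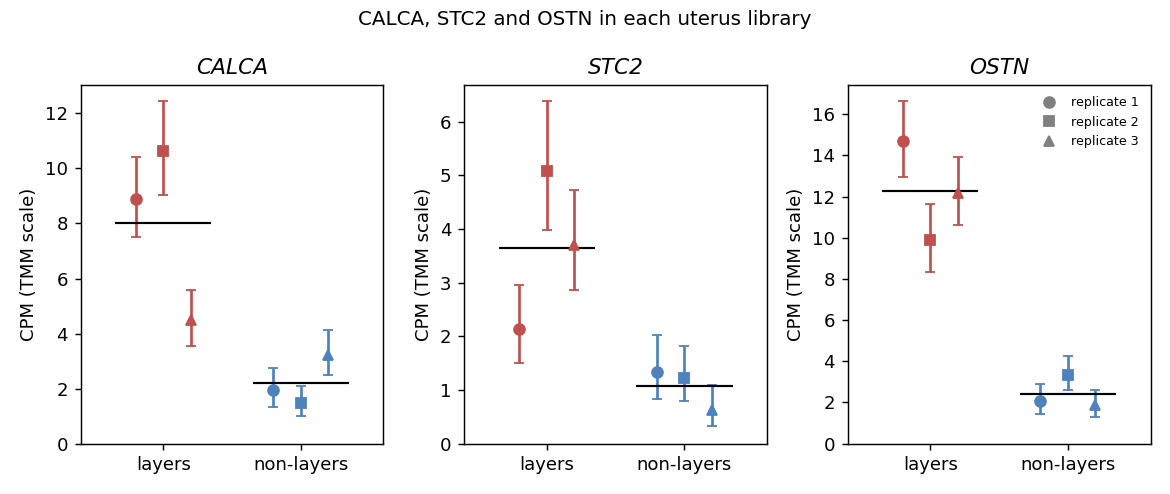
CPM on the TMM scale (vertical axes) of CALCA, STC2 and OSTN in each library of layers (red) and non-layers (blue). Symbols mark the replicate, bars are 95% Poisson intervals of the count and black lines are group means. The groups do not overlap for any of the 3 genes, and the gap is widest for OSTN, at 9.87 against 3.35 CPM.

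Of all genes tested, 12.1% had every layer above every non-layer in CPM, so a gap between the groups of this kind was shared by 1610 genes. By size of log2 fold change OSTN ranked 109, CALCA 185 and STC2 206 of the 13317 genes tested. The median log2 fold change was 0.01 over all genes tested and 1.78 over the 274 genes of the authors' table that were higher in layers. Among those 274 genes OSTN ranked 70, CALCA 124 and STC2 141, so CALCA and STC2 lay near the middle of the table's higher genes.

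The test used made the difference between a call and none for CALCA and STC2. With DESeq2's Wald test, the tool behind the authors' table, all 3 genes passed, where 3.10% of the genes tested were called higher in layers. These 3 passes follow largely from how the genes were chosen, since the authors' table was made with DESeq2 from the same 6 libraries. The DESeq2 log2 fold changes of 1.87 ± 0.47 for CALCA and 1.79 ± 0.53 for STC2 (SE) were close to those of edgeR, and the adjusted p-values were 0.002 and 0.013. With limma on log2(RPKM + 1), a scale that understates the change of low genes, STC2 differed by 0.87 and was not called, and OSTN was called. RPKM values also lack the TMM scaling. The median log2 fold change in this setting was -0.3, and STC2 stood at 1.17 relative to it.

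**Figure D2:**
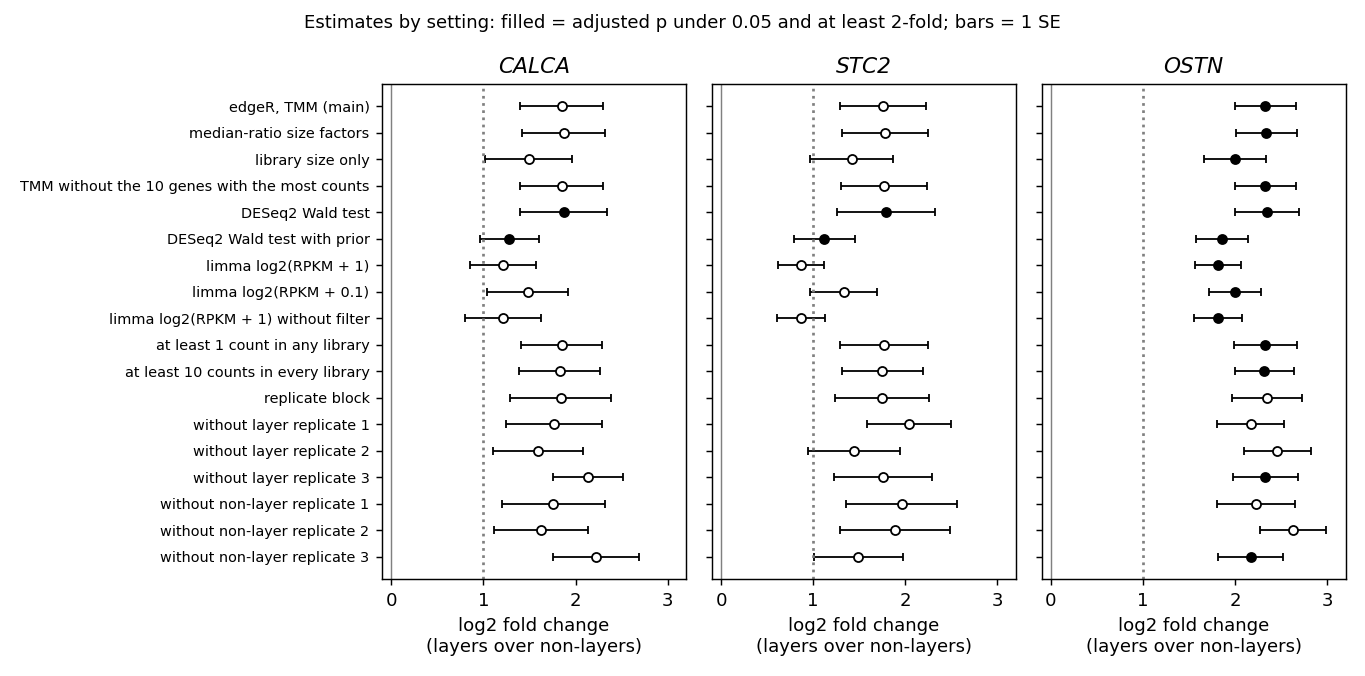
Log2 fold change of layers over non-layers (horizontal axis) for CALCA, STC2 and OSTN under each setting (rows), with bars of 1 SE. Filled points passed an adjusted p of 0.05 and a 2-fold change, a dotted line marks 2-fold, and the estimates lie above 0 in every row, while CALCA and STC2 are filled in the DESeq2 rows alone.

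The spread between hens of a group is set here beside the spread that counting alone would give, as a description. The coefficient of variation between layers was 39.5% for CALCA, where counting alone gives 8.89%. It was 40.4% for STC2, where counting gives 13.2%, and 19.7% for OSTN, where counting gives 7.06%. Among non-layers it was 40.9% for CALCA, 36.2% for STC2 and 32.9% for OSTN, with 15.6%, 22.7% and 14.8% from counting. The biological coefficient of variation that edgeR fitted was 0.398 for CALCA and 0.400 for STC2, larger than that of 83.0% and 83.4% of genes tested. For OSTN it was 0.307, near the common value of 0.31 and larger than that of 64.9% of the genes tested.

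The order of the hens within a group differed between the 3 genes. Layer 2 was the highest layer for CALCA and STC2 and the lowest for OSTN, and layer 1 was the highest for OSTN and the lowest for STC2. Non-layer 3 was the highest non-layer for CALCA and the lowest for STC2 and OSTN. Some neighbours in these orders had overlapping counting intervals. For OSTN these were 1.32 to 2.60 CPM in non-layer 3 and 1.44 to 2.90 CPM in non-layer 1. Some hens further apart did not overlap, such as layers 1 and 2 for STC2, at 1.495 to 2.95 CPM and 3.98 to 6.38 CPM. The ratio between 2 genes within a library does not depend on how libraries are scaled, and it was compared between groups for the 3 pairs. The log2 ratio of CALCA to STC2 counts was 2.04, 1.06 and 0.28 in layers 1, 2 and 3 and 0.53, 0.26 and 2.32 in non-layers 1, 2 and 3. Its means of 1.13 ± 0.89 and 1.04 ± 1.12 (SD, n = 3 each) differed by 0.09 ± 0.82 (SE), with an exact two-sided permutation p of 0.9 (adjusted p = 0.9 over the 3 ratios).

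The log2 ratio of OSTN to CALCA counts was 0.72, -0.11 and 1.43 in layers and 0.09, 1.17 and -0.78 in non-layers. Its group means differed by 0.52 ± 0.72 (SE), with an exact permutation p of 0.5 (adjusted p = 0.75). The log2 ratio of OSTN to STC2 counts was 2.77, 0.96 and 1.71 in layers and 0.62, 1.43 and 1.55 in non-layers. Its group means differed by 0.61 ± 0.60 (SE), with an exact permutation p of 0.4 (adjusted p = 0.75). All 3 ratios overlapped between the groups, and these libraries did not show that OSTN differed more between layers and non-layers than CALCA or STC2 did. With 3 hens in each group the smallest p possible is 0.1, and the standard errors leave room for sizeable differences in either direction.

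**Figure D3:**
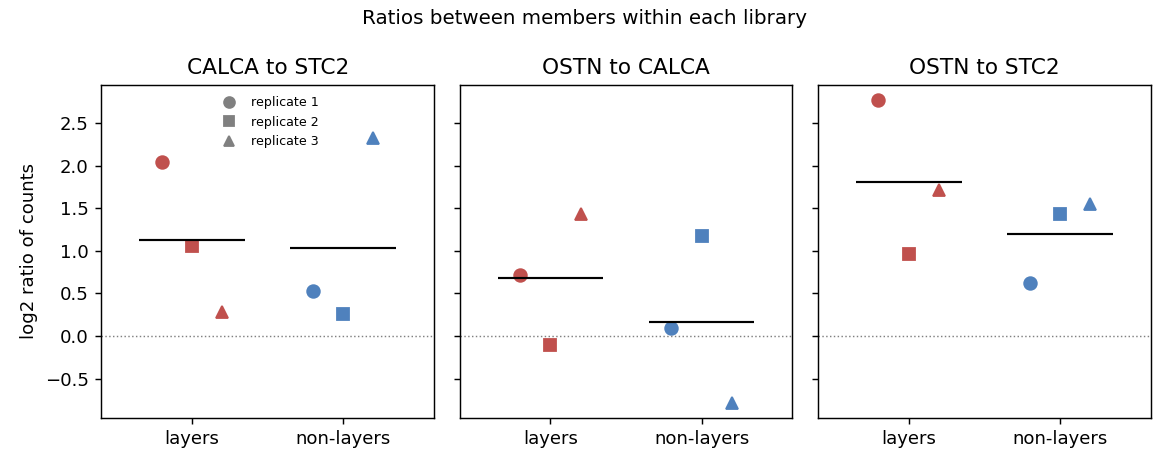
Log2 ratio of counts within each library (vertical axis) for CALCA to STC2, OSTN to CALCA and OSTN to STC2, in layers (red) and non-layers (blue), with group means as black lines and the replicate as symbol. The groups overlap in all 3 panels, with OSTN to STC2 running from 0.96 to 2.77 in layers and from 0.62 to 1.55 in non-layers.

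Levels of different genes were compared per length, as the RPKM values the authors deposited. OSTN had 25.3, 15.6 and 19.7 RPKM in layers 1, 2 and 3 and 4.24, 6.71 and 4.07 RPKM in non-layers 1, 2 and 3. CALCA had 8.69, 9.93 and 4.05 RPKM in layers and 2.25, 1.68 and 3.95 RPKM in non-layers. STC2 had 1.71, 3.75 and 2.79 RPKM in layers and 1.28, 1.15 and 0.633 RPKM in non-layers. In these RPKM values the order OSTN, CALCA, STC2 held in all 6 libraries, and within each group the ranges of neighbouring genes did not overlap, but the place of CALCA above STC2 depends on the length used for CALCA. OSTN exceeded CALCA 1.57-fold to 4.85-fold in layers but by as little as 1.03-fold in non-layer 3. CALCA exceeded STC2 1.45-fold to 5.08-fold in layers and 1.46-fold to 6.24-fold in non-layers.

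Among the genes detected in a library, the RPKM of OSTN stood at the 65.0 to 74.7 percentile in layers and at the 31.5 to 40.8 percentile in non-layers. CALCA stood at the 38.7 to 53.7 percentile in layers and the 23.9 to 31.2 percentile in non-layers, and STC2 at the 25.6 to 35.4 and the 14.9 to 20.9 percentile. By RPKM, OSTN thus went from the lower part of the range of detected genes in non-layers to the upper part in layers. STC2 was a low gene in both groups. RPKM divides counts by length, and OSTN has a short length of 543 bases. By average log CPM over the 6 libraries, which is not divided by length, OSTN stood at the 24.95 percentile of the genes tested. The genes tested are fewer than the genes detected, so this percentile and those by RPKM cannot be compared directly. The part of length in the RPKM rank was not tested.

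The RPKM values of CALCA rest on a length that its gene model does not give directly. Dividing counts by RPKM returned 1163 bases for STC2 and 543 bases for OSTN in every library, the same as their exon lengths. For CALCA it returned 955, 920 and 971 bases in layers 1, 2 and 3 and 963, 955 and 963 bases in non-layers 1, 2 and 3, or 55.6% to 58.7% of its 1654 bases of exon. With all 1654 bases as the length, an alternative chosen after seeing the data, CALCA would stand at 5.02, 5.52 and 2.38 RPKM in layers and 1.31, 0.971 and 2.30 RPKM in non-layers. STC2 would then lie above CALCA in layer 3, at 2.79 RPKM, and in non-layer 2, at 1.15 RPKM, so CALCA exceeded STC2 in 4 of 6 libraries and the ranges of these genes overlapped in both groups. CALCA has several transcripts. The authors' table holds 168 genes with several transcripts and at least 20 counts in every library, and 12 of them had a length within 1% of the exon length. All 242 genes of the table with 1 transcript and at least 20 counts in every library had such a length. The length of CALCA was 949 ± 26.0 bases in layers and 960 ± 4.87 bases in non-layers (SD, n = 3 each), with an exact permutation p of 0.7. The deposited values are per gene, so calcitonin and CGRP transcripts of CALCA cannot be told apart in them.

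Genes of the same hormone pathways were read from 4 lists of 36 genes in all, of which 6 have a name in the files. Of these 6, OSTN and PRKG2 were called higher in layers, none was called lower, and CALCA, STC2, NPR3 and IGF-I were not called. Over all genes tested, 0.901% were called higher in layers and 0.969% lower. All 6 are named only because they are in the authors' table of DEGs, so these counts describe that table. None of the 10 systemic calcium hormone genes listed (among them the genes of parathyroid hormone, its receptors and the vitamin D receptor) has a name there, and they were not analysed here.

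The natriuretic peptide list held OSTN and 2 further named genes that differed in opposite directions. PRKG2 encodes a kinase activated by cyclic GMP, a messenger that some natriuretic peptide receptors make. In rats and mice PRKG2 is needed for growth of the long bones. PRKG2 (chromosome 4, bases 45935473 to 45954816) had 31.8, 27.1 and 17.2 CPM in the layers, against 0.915, 1.13 and 1.88 CPM in the non-layers, with no overlap. Its log2 fold change was 4.26 ± 0.39 (SE), with an edgeR adjusted p of 0.016.

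NPR3 encodes the clearance receptor that binds osteocrin in mice. NPR3 (chromosome Z, bases 10035886 to 10086792) had 8.003, 8.41 and 6.07 CPM in the layers, against 19.3, 14.4 and 25.6 CPM in the non-layers. The groups did not overlap, and here the non-layers were the higher group, as in 15.1% of the genes tested. The log2 fold change of NPR3 was -1.40 ± 0.28 (SE), with an edgeR adjusted p of 0.054, just over the threshold. Layer 3 was the lowest layer for both NPR3 and PRKG2 and non-layer 3 the highest non-layer for both, while OSTN was lowest in layer 2 and highest in non-layer 2.

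**Figure D4:**
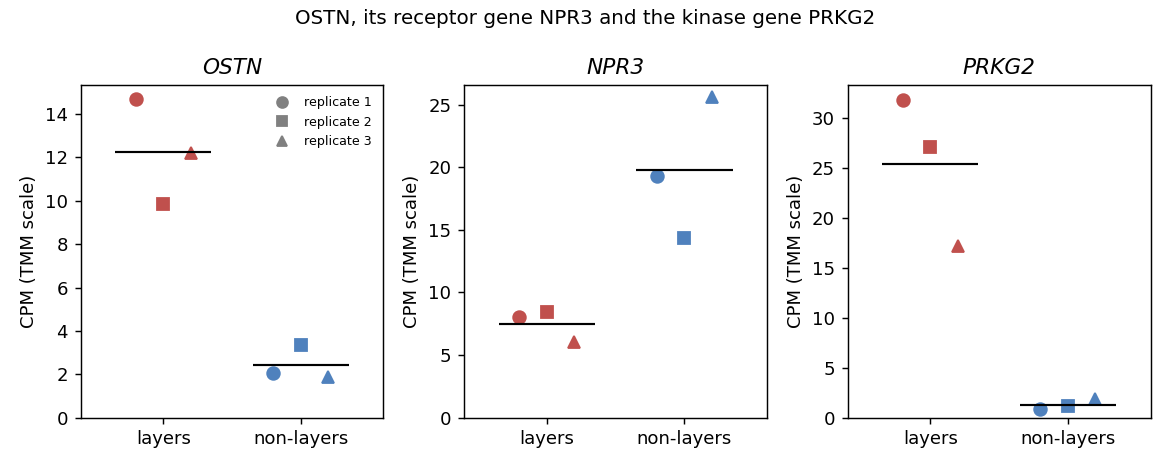
CPM on the TMM scale (vertical axes) of OSTN, of NPR3, which encodes its clearance receptor, and of the kinase gene PRKG2, in layers (red) and non-layers (blue), with group means as black lines and the replicate as symbol. OSTN and PRKG2 are higher in each layer than in any non-layer, and NPR3 is lower, at 6.07 to 8.41 CPM against 14.4 to 25.6 CPM.

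On the list of STC2, PAPP-A and the insulin-like growth factors, IGF-I was the other named gene. It encodes insulin-like growth factor 1, the growth factor whose release PAPP-A controls in humans. IGF-I (chromosome 1, bases 55335204 to 55383631) had only 2, 3 and 3 counts in the layers, against 28, 16 and 18 in the non-layers. Summed over hens and scaled by TMM, the level was 6.81-fold higher in non-layers. Its 95% counting interval of 3.25 to 16.5 leaves out the spread between hens. The log2 fold change of IGF-I was -2.74 ± 0.54 (SE), with an edgeR adjusted p of 0.053. STC2 had its higher values in layers and IGF-I in non-layers, neither past the threshold and both at low counts.

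The genes whose pattern over the 6 libraries was most like that of each hormone gene were found by the root-mean-square distance of log2 CPM, centred on each gene's mean, among 499 genes with a name. They share the group difference by which the authors' table was made, so the likeness is a description. For CALCA they were SGK3, a kinase of the serum and glucocorticoid regulated family, at a distance of 0.19, SCNN1G, the gamma subunit of the epithelial sodium channel, at 0.25 and SESN1, a sestrin, at 0.26. SGK3 averaged 233 ± 90.5 CPM in the layers and 60.2 ± 9.82 CPM in the non-layers (SD, n = 3 each), far above CALCA in CPM. Relative to the mean, the SD among non-layers was smaller for SGK3 than for CALCA, which had 2.22 ± 0.908 CPM there.

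For STC2 the nearest were AHCYL2, a relative of adenosylhomocysteinase, at 0.15, LTC4SL, named for its likeness to leukotriene C4 synthase, at 0.17 and SIAT9, a sialyltransferase that makes the ganglioside GM3, at 0.17. For OSTN they were P2RX2, an ATP-gated cation channel, at 0.19, GDF2, a bone morphogenetic protein, at 0.34 and ROS1, a receptor tyrosine kinase, at 0.37. The distance was 0.79 between CALCA and STC2, 0.75 between CALCA and OSTN and 0.67 between STC2 and OSTN. Each of the 3 genes was therefore nearer to several other genes than to either of the other 2.

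The nearest gene of the authors' table to CALCA was PDE3B, which encodes a phosphodiesterase of cyclic nucleotides and lies on the same strand 22210 bases away. PDE3B averaged 62.0 ± 23.4 CPM in the layers and 25.8 ± 6.63 CPM in the non-layers (SD, n = 3 each), with a log2 fold change of 1.27 ± 0.33 (SE) and an edgeR adjusted p of 0.096. In RefSeq's annotation of the later build GRCg7b the gene models of PDE3B and CYP2R1, a vitamin D 25-hydroxylase, overlap that of CALCA. The counts used here were made on an earlier build, where the authors' positions leave 22210 bases between PDE3B and CALCA. Whether reads were divided between CALCA and either gene was not tested. OSTN has a neighbour on the same strand 13631 bases away (ENSGALG00000033767, without a name), whose log2 fold change of -1.76 ± 0.45 (SE) had the opposite sign, with an edgeR adjusted p of 0.096. STC2 had no gene of the table close by, the nearest being KIF20A at 815696 bases.

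Of the named markers of other cell types, those of dividing cells passed edgeR's test. Those of neurons, red blood cells and ciliated cells did not. All these markers are named only because they are in the authors' table of DEGs, so their differences follow from that choice. They do not measure the share of a cell type. The neuron and neuroendocrine list, to which CGRP-making cells belong, has 1 of 5 markers with a name, UCHL1, at 27.5 to 73.9 CPM in the layers and 14.0 to 20.9 CPM in the non-layers (edgeR adjusted p = 0.11). The red blood cell list has 1 of 4, HBBA, at 58.3 to 387 CPM in the layers and 44.1 to 54.3 CPM in the non-layers (edgeR adjusted p = 0.20). The ciliated cell list has 1 of 6, TEKT1, at 31.1 to 69.4 CPM in the layers and 112 to 123 CPM in the non-layers (edgeR adjusted p = 0.070). The dividing cell list has 3 of 5 (TOP2A, CCNB3 and PLK1), all called lower in layers, with sums of 10.7 to 13.2 CPM in the layers and 54.1 to 281 CPM in the non-layers. None of these named markers was at 0, no smooth muscle, immune or endothelium marker has a name, and the part of any of these lists in the values of CALCA, STC2 and OSTN was not tested.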

How the data were processed

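Uterus RNA of 3 layers and 3 non-layers was measured by stranded mRNA sequencing, and groups and replicate numbers were taken from the labels. The authors checked reads with FastQC, cleaned them with Prinseq and mapped them to the Galgal 5.0 assembly in the software Array Studio. They deposited expected counts of each Ensembl gene, not normalized, of which 91.6% were whole numbers to within 1e-06. The counting tool and its strand setting are not given in the sources used here. The authors also deposited RPKM values, scaled by gene length and library total, and a table of 616 DEGs from DESeq2, from which names, positions and exon lengths were taken. Its columns of fold changes, p-values and q-values were not used. No value column was left unmapped. The qPCR and the molting hens of the study were not analysed here.

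Expected counts were rounded to whole numbers and fitted with edgeR 4.0.16 in R 4.3.3 (TMM, filterByExpr, quasi-likelihood F-test, no covariates, Benjamini-Hochberg over 13317 genes), after the fits were tested on simulated data. CALCA, STC2 and OSTN passed the filter. Alternatives were 3 other scalings, DESeq2 1.42.0 (unshrunken, or shrunken by a prior), limma 3.58.1 on log2(RPKM + 1) or log2(RPKM + 0.1) for genes that reached 1 RPKM in 3 or more libraries, limma unfiltered, filters of at least 1 count in any library or 10 in every library, adjusted p alone, the replicate number as a block, and each library left out. Ratios used counts plus 0.5 and an exact permutation test. Python 3.11.15, numpy 2.4.6, pandas 2.3.3, scipy 1.17.1 and matplotlib 3.10.9 were used otherwise. Total counts ranged from 14756652 to 20333092, and Poisson intervals at 95% cover counting error only.

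The 3 genes and the lists were chosen with earlier results of these data known. The other genes named were list genes with a name in the files, the 3 nearest patterns of each gene among named genes with a mean of at least 1 CPM, and the nearest table gene on the chromosome, which was added after values were seen. None of the Ensembl identifiers matched the RefSeq table of GRCg7b, which was used by symbol for synonyms and neighbours. The pairwise chi-square per gene between libraries of a group was 13.4 to 155, so no library was a copy of another.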

Additional observations from a re-analysis of the deposited data

How the results depend on the processing

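The log2 fold changes of CALCA, STC2 and OSTN kept their sign under every alternative run, and each of the 3 had an unadjusted p under 0.05 in all of them. Both follow largely from how the 3 genes were chosen, since every alternative used the same libraries as the authors' table. In the main edgeR fit 2702 of the 13317 genes tested had an unadjusted p under 0.05. CALCA and STC2 were called by DESeq2 alone, at 1.87 (adjusted p = 0.002) and 1.79 (0.013) without a prior and 1.28 and 1.12 with a prior on fold changes, which shrinks estimates by construction. Leaving out each library in turn gave 1.59 to 2.22 for CALCA, 1.44 to 2.04 for STC2 and 2.17 to 2.63 for OSTN. The number of DEGs, 249 in edgeR, was 781 with library size only, 928 with DESeq2, 632 with DESeq2 and a prior, 626 with limma on log2(RPKM + 1) and 664 on log2(RPKM + 0.1). It was 41 without layer 1, 2 without layer 2, 1 without non-layer 2 and 0 without non-layer 1, where 1704 genes had an unadjusted edgeR p under 0.05, and 0 to 274 over the 6 libraries left out. Of the 6 named pathway genes, edgeR called 2 and DESeq2 called 6 with or without a prior. All 6 are in the authors' table from DESeq2, so the DESeq2 calls follow largely from that choice. Library size only and filtered limma with either pseudocount called 4 of the 6. Limma on log2(RPKM + 1) without a filter called 2 (and 192 DEGs), and leaving out a library gave 0 to 2. Library size only moved the median over all genes to a log2 fold change of -0.33, with 13.2% of DEGs higher in layers against 48.2% on the TMM scale. The log2 fold changes fell to 1.49 for CALCA, 1.42 for STC2 and 2 for OSTN, against 1.85, 1.76 and 2.33 on the TMM scale. Relative to the median of each setting CALCA stood at 1.83, STC2 at 1.76 and OSTN at 2.34, against 1.84, 1.76 and 2.32 on the TMM scale. A change of scaling moves nearly all genes alike, so this closeness follows from the subtraction and is no test. Between groups the log2 ratio of CALCA to STC2 changed sign with a library left out, from -0.37 to 0.73, and the ratio tests cannot pass 0.05 in any setting, their smallest p being 0.1 or more. The cause of these changes was not tested. Counts were lowest for STC2 and IGF-I among the 6 named pathway genes, with as few as 12 and 2 in a library.

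With the replicate number as a block, OSTN had a log2 fold change of 2.35 and an edgeR adjusted p of 0.093. In this setting 21 genes were DEGs, and 0 of the 6 named pathway genes were called. CALCA, STC2 and OSTN each had an unadjusted edgeR p under 0.05, as had 2224 of the 13317 genes tested. The labels do not say whether the numbers pair hens. The deviations of same-numbered libraries correlated at -0.15, 0.11 and -0.066, and 2 of 6 libraries correlated best with their own number. With 3 libraries in each group, these values cannot decide whether hens were paired.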
